A study of Mus musculus with 8 samples.

Results

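The RNA levels of 10 genes that set the pace of the G1 phase of the cell cycle were followed in mouse embryonic stem (ES) cells of 4 Tbxt genotypes. They are the 3 D-type cyclins Ccnd1, Ccnd2 and Ccnd3, the 2 E-type cyclins Ccne1 and Ccne2, the Cip/Kip inhibitor Cdkn1b, and the 4 INK4 inhibitors Cdkn2a, Cdkn2b, Cdkn2c and Cdkn2d. They were picked out of the 48440 genes listed by pairing the Ensembl identifiers with the symbols of GENCODE M21, and all 10 were among the 17049 genes with enough reads for a test. Every line descended from MK6 (ES cells of C57BL/6J mice) and was harvested on day 1 of an in vitro differentiation that induces Tbxt: feeder-free culture in N2/B27 medium without LIF, followed by the GSK3 inhibitor CHIR99021. WT cells were unedited, Tbxt delE6/delE6 cells lacked exon 6 of Tbxt on both alleles, and Tbxt delE6/+ cells lacked it on 1 allele. In Tbxt Insert ASAY cells the human AluSx1 and AluY elements had been placed around exon 6, on both alleles according to the methods of the study. Each genotype had 2 libraries, which the study calls biological replicates. The 2 Tbxt delE6/delE6 libraries came from different clones, and the sources used here do not say how many clones stand behind the other genotypes. The insertion was made in cells kept on feeders and the exon 6 deletions in feeder-free cells, so that the kind of edit and the conditions of editing cannot be told apart. WT cells are the controls, and the comparisons ask how far each edit of Tbxt, and the dose of the exon 6 deletion, goes with a change in the RNA of these genes.

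D-type cyclins are made when growth signals arrive, and they activate the kinases Cdk4 and Cdk6, which begin to phosphorylate the retinoblastoma protein. E-type cyclins activate Cdk2, which completes that step, frees E2F transcription factors and starts DNA replication. The INK4 inhibitors bind Cdk4 and Cdk6 and keep D-type cyclins off them, while Cdkn1b, the gene of p27Kip1, blocks cyclin E bound to Cdk2. Mouse ES cells are known for a short G1 phase, high cyclin E and low D-type cyclin and INK4 levels, and G1 lengthens as they leave pluripotency. Much of this control acts on the proteins, which were not measured here. The libraries are bulk RNA, so fewer cells of a kind and less RNA per cell cannot be told apart.

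Between 24618587 and 28445952 reads fell on genes in each library, and reads on the strand opposite to the gene made up 4.11% to 4.78%. Tbxt itself had 47 and 42 reads in the WT libraries, 26 and 22 in the Tbxt delE6/delE6 libraries, 30 and 29 in the Tbxt Insert ASAY libraries and 39 and 54 in the Tbxt delE6/+ libraries. A count over the whole gene does not separate transcripts with and without exon 6, so it does not check the edits. The pair of Tbxt delE6/delE6 clones differed more than the replicates of the other genotypes: among 12837 genes averaging 2 CPM (reads per 1000000 reads on genes) or more, 40 differed between them by over 1 in log2 CPM, against 6 to 10 genes within the other genotypes. Calls among the 10 genes that hang on 1 of these libraries are given with and without it. Calls of other genes are given from all libraries only.

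The 10 genes covered a wide range of levels. The CPM used here are reads per 1000000 reads on genes, with library sizes scaled by the trimmed mean of M values (TMM). The lowest count of any of them in any library was 56 reads, for Cdkn2c in a WT library, and the highest was 4330 reads, for Ccnd3 in a Tbxt delE6/delE6 library. Levels can be compared between genes only per length of exon, and on that scale Ccne1 led, with a mean of 31.5 CPM per kb over the 8 libraries. Cdkn2a followed with 23.5 CPM per kb and Ccnd3 with 16.2 CPM per kb. Cdkn2c was the lowest of the 10, with 1.02 CPM per kb. The plot of levels by library shows each gene on its own linear axis.

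**Figure D1:**
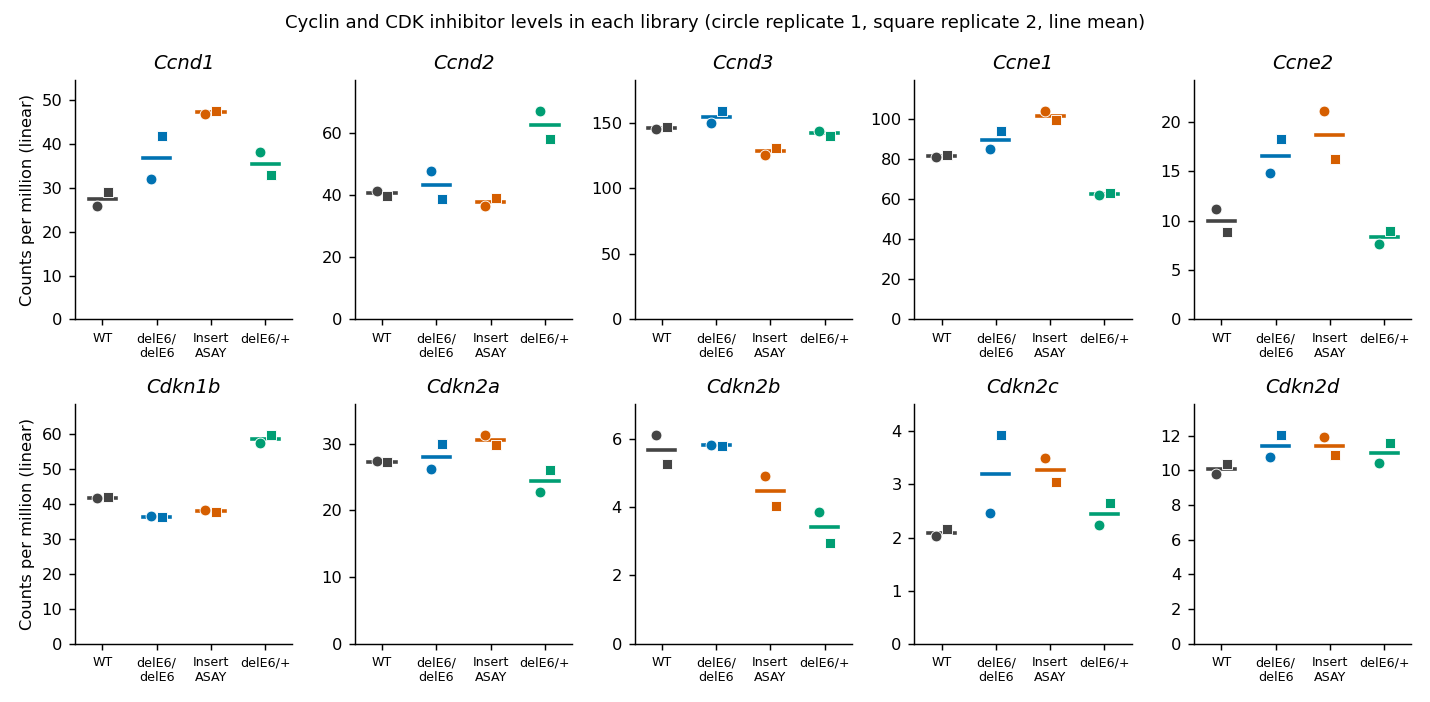
Level of each of the 10 genes in the 8 libraries. The vertical axes give CPM on a linear scale that starts at 0, the horizontal axes the 4 genotypes; circles are replicate 1, squares replicate 2 and lines the mean of the 2. Ccne2 ran from 7.69 to 21.1 CPM and Cdkn2d only from 9.78 to 12.0 CPM, and the Tbxt delE6/+ libraries lay apart from the other genotypes for Ccnd2, Ccne1 and Cdkn1b.

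Each mutant line was compared with WT by edgeR's quasi-likelihood test with Benjamini-Hochberg adjustment over all tested genes. Calls required both an adjusted p below 0.05 and a log2 fold change exceeding 0.5 in size, the thresholds used in the study. In Tbxt delE6/delE6 cells 1 of the 10 genes was called, Ccne2, which was higher, where 12.7% of all tested genes were called. Tbxt delE6/+ cells had 2 called genes, Ccnd2 higher and Cdkn2b lower, where 13.5% of all genes were called. Tbxt Insert ASAY cells had 3, Ccnd1, Ccne2 and Cdkn2c, all higher, where 21.3% of all genes were called. For 10 genes these counts are near the shares of all genes. Without the threshold on size, 3 of the 10 passed the adjusted p in Tbxt delE6/delE6 cells, 5 in Tbxt delE6/+ cells and 5 in Tbxt Insert ASAY cells, where 35.4%, 31.6% and 47.3% of all genes passed. The median log2 fold change of the 10 genes was 0.11 in Tbxt delE6/delE6 cells, 0.04 in Tbxt delE6/+ cells and 0.17 in Tbxt Insert ASAY cells, beside -0.01, -0.000586 and -0.01 over all tested genes. These 3 comparisons share the WT libraries.

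**Figure D2:**
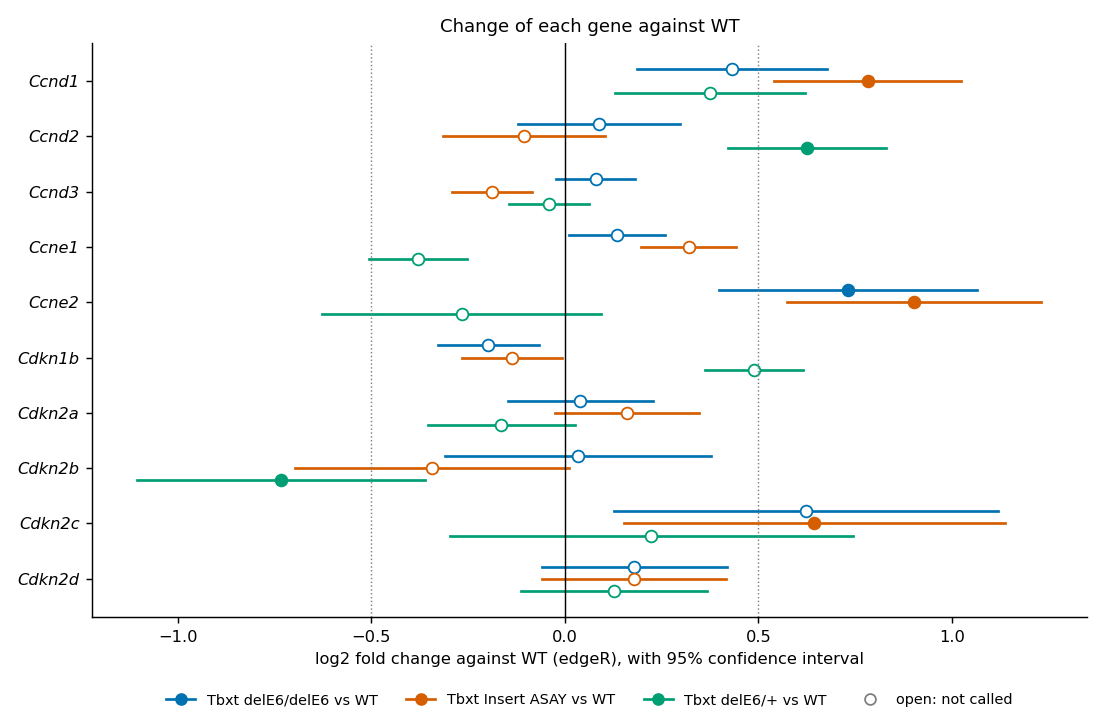
Log2 fold change of each of the 10 genes against WT. The horizontal axis gives the edgeR estimate with its 95% confidence interval, colours the 3 mutant lines, filled points the called genes and dotted lines the threshold of 0.5 in either direction. Ccne1 lay at 0.32 in Tbxt Insert ASAY and at -0.38 in Tbxt delE6/+ cells, and Cdkn1b at -0.20 in Tbxt delE6/delE6 and at 0.49 in Tbxt delE6/+ cells.

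Ccnd1 is the D-type cyclin most closely tied to growth factor and Wnt signals. It was highest in Tbxt Insert ASAY cells. Its level was 25.7 and 29.1 CPM in the WT libraries and 46.8 and 47.5 CPM in the Tbxt Insert ASAY libraries. The Tbxt delE6/delE6 clones had 31.9 and 41.8 CPM, and the Tbxt delE6/+ libraries 38.0 and 33.0 CPM. Every mutant library lay above both WT libraries, and both Tbxt Insert ASAY libraries lay above all others. The log2 fold change against WT was 0.78 ± 0.11 (SE, n = 2 and 2 libraries) in Tbxt Insert ASAY cells (edgeR adjusted p = 0.000112). It was 0.43 ± 0.11 in Tbxt delE6/delE6 cells (edgeR adjusted p = 0.0107) and 0.37 ± 0.11 in Tbxt delE6/+ cells (edgeR adjusted p = 0.0235), past the adjusted p and short of the threshold on size. The deletion lines were neighbours in this order and were not told apart, with a log2 difference of -0.06 (95% confidence interval -0.30 to 0.19). The difference of each deletion line from WT rested on single libraries. For Tbxt delE6/delE6 it was 0.34 without WT replicate 1 (edgeR adjusted p = 0.113) and 0.22 without Tbxt delE6/delE6 replicate 2 (edgeR adjusted p = 0.0806), but 0.52 without WT replicate 2 (edgeR adjusted p = 0.0288) and 0.62 without Tbxt delE6/delE6 replicate 1 (edgeR adjusted p = 4.42e-06). For Tbxt delE6/+ it was 0.29 without WT replicate 1 (edgeR adjusted p = 0.193) and 0.27 without Tbxt delE6/+ replicate 1 (edgeR adjusted p = 0.221).

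Ccnd2, a D-type cyclin used widely in neural and germ cells, was highest in Tbxt delE6/+ cells. The 2 Tbxt delE6/+ libraries had 67.1 and 58.2 CPM. WT libraries had 41.4 and 39.8 CPM, Tbxt delE6/delE6 libraries 47.8 and 38.6 CPM, and Tbxt Insert ASAY libraries 36.5 and 39.0 CPM. Both Tbxt delE6/+ libraries lay above the other 6, which overlapped one another apart from WT and Tbxt Insert ASAY. Its log2 fold change against WT was 0.63 ± 0.09 in Tbxt delE6/+ cells (edgeR adjusted p = 0.000257). In Tbxt delE6/delE6 cells it was 0.09, with a 95% confidence interval of -0.12 to 0.30, and in Tbxt Insert ASAY cells it was -0.10, with an interval of -0.32 to 0.10. Ccnd2 was thus higher in the Tbxt delE6/+ line than in either WT or Tbxt delE6/delE6 cells.

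Ccnd3 had the highest level of the D-type cyclins in every library and the smallest range of these cyclins. Its level was 145 and 146 CPM in WT, 149 and 159 CPM in Tbxt delE6/delE6, 143 and 140 CPM in Tbxt delE6/+, and 126 and 130 CPM in Tbxt Insert ASAY libraries. The Tbxt Insert ASAY libraries were the lowest 2 of the 8. There the log2 fold change against WT was -0.19 ± 0.05 (edgeR adjusted p = 0.00584), short of the threshold on size, and -0.16 without Tbxt Insert ASAY replicate 1 (edgeR adjusted p = 0.0783).

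The makeup of the D-type cyclins was computed from CPM per kb of exon. Ccnd3 gave 62.7% and 61.6% of the D-type cyclin signal in the WT libraries. It gave 58.9% and 58.2% in the Tbxt delE6/delE6, 51.8% and 54.8% in the Tbxt delE6/+ and 50.9% and 51.1% in the Tbxt Insert ASAY libraries. A lower share is not a lower level: the log2 fold change of Ccnd3 itself was 0.08 in Tbxt delE6/delE6 and -0.04 in Tbxt delE6/+ cells, neither past the adjusted p. Ccnd1 was 21.7% ± 1.51 (SD, n = 2) in WT and 35.0% ± 0.477 in Tbxt Insert ASAY cells, while Ccnd2 was 16.1% ± 0.745 in WT and 14.0% ± 0.342 in Tbxt Insert ASAY cells. In Tbxt delE6/+ cells Ccnd2 was 21.9% ± 0.994 and Ccnd1 24.8% ± 1.12. The Tbxt delE6/delE6 clones differed from each other, with Ccnd1 at 23.5% and 28.6% and Ccnd2 at 17.6% and 13.2%. The summed level of the D-type cyclins was 26.8 ± 0.467 CPM per kb in WT, 30.0 ± 1.57 in Tbxt delE6/delE6, 30.3 ± 1.70 in Tbxt delE6/+ and 28.6 ± 0.680 in Tbxt Insert ASAY cells. These shares are descriptions, since an exact two-sided permutation test of 2 against 2 libraries cannot give a p below 0.333. They depend on the exon length used: with the longest transcript in place of all exons, the Ccnd1 share was 14.2% in WT and 24.4% in Tbxt Insert ASAY cells.

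**Figure D3:**
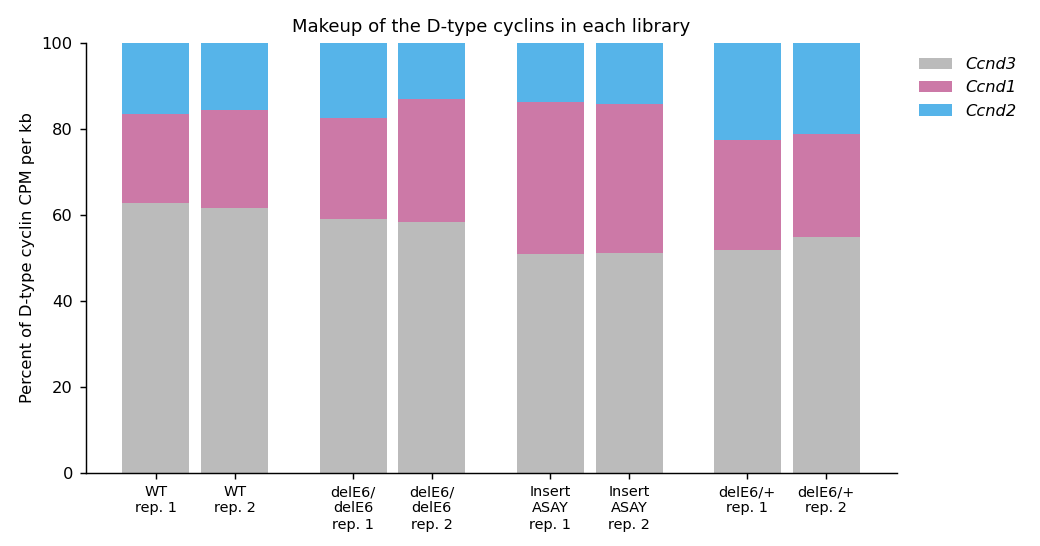
Share of each D-type cyclin in the summed CPM per kb of exon, in percent, for each of the 8 libraries (rep., replicate). Ccnd3 made up 61.6% to 62.7% in WT and 50.9% to 51.1% in Tbxt Insert ASAY libraries, where Ccnd1 took 34.7% to 35.3%. Ccnd2 was largest in the Tbxt delE6/+ libraries, at 21.2% to 22.6%.

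Ccne1 and Cdkn1b passed the adjusted p against WT in opposite directions in different mutant lines, and Cdkn2b was the called inhibitor that fell, so their promoters are shown before the values. RefSeq promoter windows were on hand for 7 of the 10 genes (build GRCm38.p6), and Ccnd1, Ccnd2 and Ccne2 had none. The sequences below are the 250 bases before the annotated start, 5′ to 3′ on the strand of the gene. Ccne1 lies on the minus strand, and its window is chr7:38107491-38107740. The window of Cdkn1b, on the plus strand, is chr6:134920151-134920400, and that of Cdkn2b, on the minus strand, is chr4:89311033-89311282. Capitals mark the GC box GGGCGG or its reverse complement CCGCCC, letters bound by Sp1-family factors.
Ccne1: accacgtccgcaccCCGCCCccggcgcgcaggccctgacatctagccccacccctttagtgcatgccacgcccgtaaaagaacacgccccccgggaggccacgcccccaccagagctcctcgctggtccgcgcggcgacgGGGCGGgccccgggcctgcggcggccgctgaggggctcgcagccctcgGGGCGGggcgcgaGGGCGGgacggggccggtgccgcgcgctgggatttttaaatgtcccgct
Cdkn1b: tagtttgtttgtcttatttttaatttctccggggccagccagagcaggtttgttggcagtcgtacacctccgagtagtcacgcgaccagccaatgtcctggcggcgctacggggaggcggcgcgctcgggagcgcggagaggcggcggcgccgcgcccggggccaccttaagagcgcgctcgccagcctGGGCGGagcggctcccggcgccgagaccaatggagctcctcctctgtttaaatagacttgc
Cdkn2b: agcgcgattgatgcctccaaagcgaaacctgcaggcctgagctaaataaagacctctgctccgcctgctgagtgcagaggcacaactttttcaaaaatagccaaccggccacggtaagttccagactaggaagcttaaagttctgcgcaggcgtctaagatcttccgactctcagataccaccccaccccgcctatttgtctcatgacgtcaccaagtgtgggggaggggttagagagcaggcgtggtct
The Ccne1 window held 4 GC boxes and had a GC content of 76.0%, the Cdkn1b window held 1 and had 64.4%, and the Cdkn2b window held none and had 53.6%. Over all 32851 promoter windows of the same length the median GC content was 52.4%, and 32.7% of the windows held a GC box on either strand. Strict E2F letters (TTTGGCGC, TTTCCCGC, TTTGCCGC or TTTCGCGC on either strand) occurred in 1 of the 10 windows of these genes, the upstream promoter of Cdkn2a, and in 1.86% of all windows. The T-box letters TCACACCT, found in 1.12% of all windows, and the Tcf/Lef letters CTTTGAT or CTTTGAA, found in 7.48%, occurred in none of the 10 windows, each searched on both strands. No matches in these windows shared a base. A missing match says only that these letters are not in the window.

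Ccne1, the main E-type cyclin of ES cells, was highest in Tbxt Insert ASAY and lowest in Tbxt delE6/+ cells. Its level was 80.9 and 82.0 CPM in the WT libraries, 84.7 and 94.0 CPM in the Tbxt delE6/delE6 clones, 104 and 99.4 CPM in the Tbxt Insert ASAY libraries, and 62.1 and 63.2 CPM in the Tbxt delE6/+ libraries. No library of 1 genotype overlapped those of another. Against WT, the log2 fold change was 0.32 ± 0.06 in Tbxt Insert ASAY cells (edgeR adjusted p = 0.000546) and -0.38 ± 0.06 in Tbxt delE6/+ cells (edgeR adjusted p = 0.000298). Both passed the adjusted p and stayed below the threshold on size. WT and Tbxt delE6/delE6 were the neighbours that the test did not separate, with a log2 difference of 0.14 (95% confidence interval 0.01 to 0.26, edgeR adjusted p = 0.0834).

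Ccne2 encodes the second E-type cyclin, whose gene is a known E2F target, and it had the widest range of the 10 genes. It had 11.2 and 8.82 CPM in the WT libraries and 7.69 and 8.95 CPM in the Tbxt delE6/+ libraries, which overlapped. The Tbxt delE6/delE6 clones had 14.9 and 18.3 CPM and the Tbxt Insert ASAY libraries 21.1 and 16.3 CPM, which overlapped each other and lay above the other 4 libraries. The log2 fold change against WT was 0.73 ± 0.15 in Tbxt delE6/delE6 cells (edgeR adjusted p = 0.00306), a level 1.66-fold higher. It was 0.90 ± 0.15 in Tbxt Insert ASAY cells (edgeR adjusted p = 0.000369), a level 1.87-fold higher. In Tbxt delE6/+ cells it was -0.27 with a 95% confidence interval of -0.63 to 0.09. Ccne2 shares 609 bases of exon with Ints8, which lies on the other strand. Reads on that strand within Ccne2 numbered 134 to 178 per library and were left out by the stranded count. Ints8 itself had log2 fold changes of -0.02 in Tbxt delE6/delE6 and -0.01 in Tbxt Insert ASAY cells.

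Per kb of exon, Ccne1 gave 91.5% ± 1.36 (SD, n = 2) of the E-type cyclin signal in WT and 90.8% ± 0.791 in Tbxt delE6/+ cells. It gave 87.7% ± 0.801 in Tbxt delE6/delE6 and 87.8% ± 1.65 in Tbxt Insert ASAY cells. Ccne2 thus remained the minor E-type cyclin in every library, with 7.58% to 13.4% of the signal. The summed E-type cyclin level was 33.4 ± 0.189 CPM per kb in WT, 38.3 ± 3.16 in Tbxt delE6/delE6, 43.5 ± 2.19 in Tbxt Insert ASAY and 25.9 ± 0.557 in Tbxt delE6/+ cells.

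Cdkn1b, whose product blocks the kinase of the E-type cyclins, was highest in Tbxt delE6/+ cells. Its level was 41.5 and 41.8 CPM in WT, 36.5 and 36.2 CPM in Tbxt delE6/delE6, 38.2 and 37.6 CPM in Tbxt Insert ASAY, and 57.5 and 59.5 CPM in Tbxt delE6/+ libraries. Replicates lay close together, and no genotype overlapped another. The log2 fold change against WT was 0.49 ± 0.06 in Tbxt delE6/+ cells (edgeR adjusted p = 3.95e-05), just short of the threshold on size, and without Tbxt delE6/+ replicate 1 it was 0.51 (edgeR adjusted p = 0.000828), past it. In Tbxt delE6/delE6 cells it was -0.20 ± 0.06 (edgeR adjusted p = 0.0217), which no longer passed with DESeq2 (adjusted p = 0.0799), without WT replicate 1 (edgeR adjusted p = 0.0944) or without WT replicate 2 (edgeR adjusted p = 0.103). In Tbxt Insert ASAY cells it was -0.14 ± 0.06 (edgeR adjusted p = 0.0772), with a 95% confidence interval of -0.27 to -0.01.

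Set against Cdkn1b, the summed E-type cyclin level per kb was 3.68 and 3.63 times that of Cdkn1b in the WT libraries. The ratio was 4.50 and 5.10 in the Tbxt delE6/delE6 clones and 5.37 and 5.08 in the Tbxt Insert ASAY libraries. In the Tbxt delE6/+ libraries it was 2.02 and 2.01, below every other library. The ratio is a description of RNA levels, with no test, and was formed after the values were seen.

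**Figure D4:**
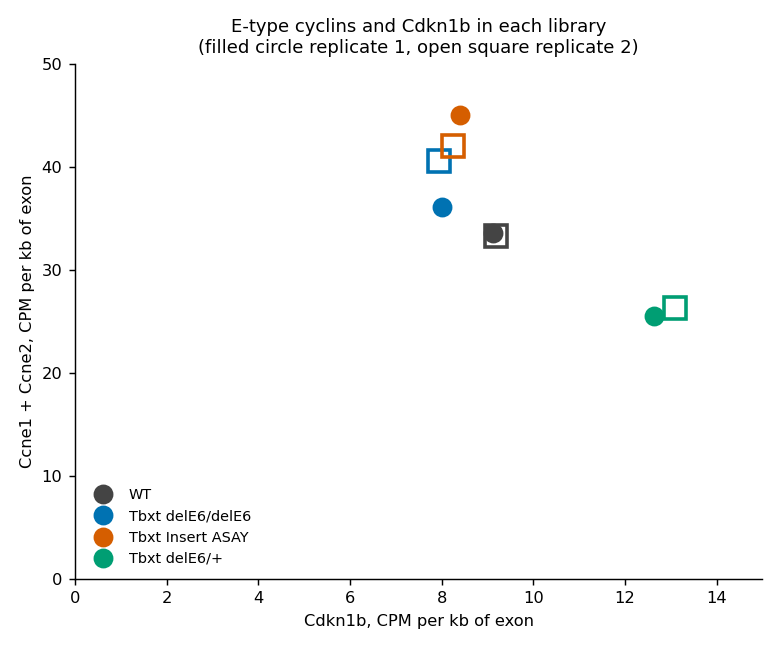
Summed level of Ccne1 and Ccne2 against the level of Cdkn1b, both in CPM per kb of exon on linear axes that start at 0, for the 8 libraries; colours are the genotypes, filled circles replicate 1 and open squares replicate 2. The Tbxt delE6/+ libraries lay at the lower right, with E-type cyclin sums of 25.5 and 26.3 CPM per kb, and the Tbxt Insert ASAY libraries at the top, with 45.1 and 42.0.

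Among the INK4 inhibitors, Cdkn2b fell in Tbxt delE6/+ cells. Cdkn2b encodes p15Ink4b, a known target of TGF-beta signals. It had 6.10 and 5.25 CPM in WT, 5.83 and 5.79 CPM in Tbxt delE6/delE6, 4.92 and 4.03 CPM in Tbxt Insert ASAY, and 3.86 and 2.94 CPM in Tbxt delE6/+ libraries. The Tbxt delE6/+ libraries were the lowest 2 of the 8, and the Tbxt Insert ASAY libraries lay between them and the rest. The log2 fold change against WT in Tbxt delE6/+ cells was -0.73 ± 0.17 (edgeR adjusted p = 0.00553). The call rested on 72 to 169 reads per library and on single libraries: without WT replicate 1 the value was -0.62 (edgeR adjusted p = 0.0636), and without Tbxt delE6/+ replicate 2 it was -0.56 (edgeR adjusted p = 0.0751). In Tbxt Insert ASAY cells it was -0.34 with a 95% confidence interval of -0.70 to 0.01, and in Tbxt delE6/delE6 cells 0.03 with an interval of -0.31 to 0.38.

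Cdkn2c, the gene of p18Ink4c, had the fewest reads of the 10. It had 2.02 and 2.16 CPM in WT and 3.5 and 3.04 CPM in Tbxt Insert ASAY libraries, and 2.47 and 3.92 CPM in the Tbxt delE6/delE6 clones. The Tbxt delE6/+ libraries had 2.23 and 2.66 CPM, and all mutant libraries lay above both WT libraries. In Tbxt Insert ASAY cells the log2 fold change was 0.64 ± 0.23 (edgeR adjusted p = 0.033). That call was lost with DESeq2 (adjusted p = 0.0902) and on leaving out any 1 of the 4 libraries compared: the edgeR adjusted p was 0.147 without WT replicate 1, 0.099 without WT replicate 2, 0.18 without Tbxt Insert ASAY replicate 1 and 0.0613 without Tbxt Insert ASAY replicate 2. In Tbxt delE6/delE6 cells the value was 0.62 ± 0.23 (edgeR adjusted p = 0.0507), not called. Without Tbxt delE6/delE6 replicate 1 it was 0.91 (edgeR adjusted p = 0.00123), called, and without replicate 2 of that line it was 0.24 (edgeR adjusted p = 0.513).

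Cdkn2a and Cdkn2d were not called in any of the 6 comparisons, by edgeR or by DESeq2. Cdkn2a encodes both p16Ink4a and p19Arf from separate promoters, and the count adds the transcripts of both. It was the highest INK4 gene per kb, with 65.5% to 69.1% of their summed level as genotype means. Its level was 27.5 and 27.2 CPM in WT, 26.2 and 30.0 CPM in Tbxt delE6/delE6, 31.3 and 29.8 CPM in Tbxt Insert ASAY, and 22.8 and 26.1 CPM in Tbxt delE6/+ libraries. The lowest levels were thus in Tbxt delE6/+ cells, with a log2 fold change against WT of -0.16 (95% confidence interval -0.36 to 0.03). Cdkn2d, the gene of p19Ink4d, was the steadiest of the 10: it had 9.78 and 10.4 CPM in WT and between 10.4 and 12.0 CPM in the 6 mutant libraries. Its log2 fold change against WT was 0.18 in Tbxt delE6/delE6 cells, 0.18 in Tbxt Insert ASAY cells and 0.13 in Tbxt delE6/+ cells, and all 3 confidence intervals included 0.

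The mutant lines were then compared with each other. Between the heterozygous and the homozygous exon 6 deletion, 5 of the 10 genes were called, where 22.2% of all tested genes were called. Ccnd2 and Cdkn1b were higher in Tbxt delE6/+ cells, and Ccne1, Ccne2 and Cdkn2b were lower. The same 5 passed the adjusted p alone, where 47.1% of all genes passed. Ccne2 differed most, with a log2 difference of -0.9996 ± 0.16 (edgeR adjusted p = 0.000222), a level 2.00-fold lower in Tbxt delE6/+ cells. Cdkn1b was 0.69 ± 0.06 higher (edgeR adjusted p = 1.54e-06) and Cdkn2b -0.77 ± 0.17 (edgeR adjusted p = 0.00274). The other two calls lay close to the threshold on size and hung on single libraries. Ccnd2 differed by 0.54 ± 0.09 (edgeR adjusted p = 0.000468), but by 0.39 without Tbxt delE6/delE6 replicate 2 and by 0.43 without Tbxt delE6/+ replicate 1. Ccne1 differed by -0.51 ± 0.06 (edgeR adjusted p = 1.52e-05), but by -0.44 without Tbxt delE6/delE6 replicate 2, which left 3 of the 10 genes called. Cdkn2c joined the called genes without Tbxt delE6/delE6 replicate 1, at -0.69.

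Between Tbxt Insert ASAY and Tbxt delE6/+ cells 4 of the 10 genes were called, where 27.5% of all genes were called. Ccne2 was 1.17 ± 0.16 higher in Tbxt Insert ASAY cells on the log2 scale (edgeR adjusted p = 4.54e-05) and Ccne1 0.70 ± 0.06 higher (edgeR adjusted p = 9.57e-07). Ccnd2 had a log2 difference of -0.73 ± 0.10 (edgeR adjusted p = 3.53e-05) and Cdkn1b of -0.63 ± 0.06 (edgeR adjusted p = 2.51e-06). Ccnd1, Ccnd3 and Cdkn2a passed the adjusted p but not the size, so that 7 of 10 passed it where 52.9% of all genes did, but each of the 3 failed it without 1 or more of the single libraries. Without Tbxt delE6/+ replicate 1, Ccnd1 (0.51) and Cdkn2b (0.60) passed both thresholds, for 6 called genes.

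Tbxt Insert ASAY and Tbxt delE6/delE6 cells, the lines in which both alleles are edited, differed least. None of the 10 genes was called by edgeR or by DESeq2, where 5.16% of all genes were called. Beside 30.1% of all genes, 4 of the 10 had an unadjusted edgeR p under 0.05. Of these, 3 passed the adjusted p, where 15.4% of all genes passed: Ccnd1 at 0.35 ± 0.11 (edgeR adjusted p = 0.0461), Ccne1 at 0.18 ± 0.06 (edgeR adjusted p = 0.0438) and Ccnd3 at -0.27 ± 0.05 (edgeR adjusted p = 0.00244). All 3 rested on single libraries: without Tbxt Insert ASAY replicate 1 the edgeR adjusted p was 0.197 for Ccnd1, 0.314 for Ccne1 and 0.0641 for Ccnd3, and Ccne1 also failed with DESeq2 (adjusted p = 0.0892). Without Tbxt delE6/delE6 replicate 2, Ccnd1 was called at 0.56 (edgeR adjusted p = 4.26e-05). For Ccne2 the difference was 0.17 with a 95% confidence interval of -0.14 to 0.48, which does not show equal levels.

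The 10 genes lie on 5 chromosomes. Ccne2, Cdkn2a, Cdkn2b and Cdkn2c are on chromosome 4, Ccnd2 and Cdkn1b on chromosome 6, Ccnd1 and Ccne1 on chromosome 7, Cdkn2d on chromosome 9 and Ccnd3 on chromosome 17. In Tbxt delE6/+ cells the genes of chromosome 3, where none of the 10 lies, had a median log2 fold change of 0.32 against WT. On the 5 chromosomes that hold the 10 the medians in that comparison ran from -0.05 to 0.08. Any part of the chromosome 3 shift in the values of the 10 genes in these cells was not tested. The nearest tested protein-coding genes on either side that are not among the 10 numbered 18. Of these, 1 was called in Tbxt delE6/delE6, 2 in Tbxt delE6/+ and 4 in Tbxt Insert ASAY cells against WT. Of all tested genes, 12.7%, 13.5% and 21.3% were called in the same order, so the neighbours were not called more often than that by any wide margin. The called neighbours are named here after their values were seen. Gpr19, an orphan receptor gene 21.8 kb from Cdkn1b, had log2 fold changes of 1.09 in Tbxt delE6/+ cells (edgeR adjusted p = 1.75e-07), -0.27 in Tbxt delE6/delE6 cells and -0.26 in Tbxt Insert ASAY cells, the directions of Cdkn1b in each line. Cdkn2a and Cdkn2b lie 11.6 kb apart, and in Tbxt delE6/+ cells Cdkn2b was at -0.73 and Cdkn2a at -0.16. Ap1m2, 2.9 kb from Cdkn2d, was at -1.11 in Tbxt delE6/+ cells (edgeR adjusted p = 0.0001), where Cdkn2d was at 0.13. Tpcn2, 247 kb from Ccnd1, was at 0.78 in Tbxt Insert ASAY cells (edgeR adjusted p = 0.00117), where Ccnd1 was at 0.78 as well. In the same cells Rnf11, 176.1 kb from Cdkn2c, was at -0.58 (edgeR adjusted p = 0.000332), where Cdkn2c was at 0.64, and 1600014C10Rik, 75.7 kb from Ccne1, was at 0.91 (edgeR adjusted p = 0.00111). Dmrta1, 368 kb from Cdkn2b, was at 1.74 in Tbxt delE6/delE6 and 1.64 in Tbxt Insert ASAY cells, where Cdkn2b was at 0.03 and -0.34.

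Genes with the most similar pattern to the widest-ranging members were found by Pearson's r of log2 CPM over the 8 libraries, which are 4 pairs of replicates. For Ccne2 they were Rmi1 (r = 0.996), Pih1d1 (r = 0.991) and Med6 (r = 0.990). For Ccnd1 they were Tada1 (r = 0.988) and Olfm1 (r = 0.981). None of these 5 genes lies on the chromosome of the gene it resembles.

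A list of 29 other genes of the G1/S machinery (kinases, retinoblastoma and E2F family members, the SCF ligase that degrades p27Kip1, Cdkn1a and Cdkn1c) had 2 genes higher and 2 lower in Tbxt delE6/delE6 cells. It had 0 higher and 4 lower in Tbxt delE6/+ cells and 4 higher and 2 lower in Tbxt Insert ASAY cells, by edgeR, with 5, 3 and 6 genes called by DESeq2. The shares called were 13.8%, 13.8% and 20.7%, beside 12.7%, 13.5% and 21.3% of all genes, and the median log2 fold changes were 0.19, -0.03 and 0.17. E2f3, an activating E2F, was higher in Tbxt delE6/delE6 cells (0.83 ± 0.12, edgeR adjusted p = 0.000273) and in Tbxt Insert ASAY cells (1.06 ± 0.11, edgeR adjusted p = 1.59e-05). Cdk7, the kinase that activates other CDKs, was at 0.50 in the former and 0.59 in the latter, called in both. Its level was 65.9 and 76.4 CPM in the Tbxt delE6/delE6 clones, beside 51.3 and 49.2 CPM in WT. Cul1, the scaffold of the SCF ligase, was at 0.54 in Tbxt Insert ASAY cells. In Tbxt delE6/+ cells Cdk6, a partner of D-type cyclins, was at -0.57 ± 0.07 (edgeR adjusted p = 4.57e-05), the p53 target Cdkn1a at -0.60 ± 0.05 (edgeR adjusted p = 1.76e-06) and the repressor E2f7 at -0.50 ± 0.08 (edgeR adjusted p = 0.000477). Cdkn1c, the imprinted Cip/Kip inhibitor, was at -4.10 ± 0.14 in Tbxt delE6/delE6 cells (edgeR adjusted p = 7.24e-09), with 5.91 and 3.15 CPM beside 77.1 and 76.9 CPM in WT.

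Further down the same pathway, of 23 E2F targets of S phase, such as the Mcm helicase subunits, 0 were called against WT in any line by edgeR or by DESeq2. Of all genes, edgeR called 12.7% in Tbxt delE6/delE6, 13.5% in Tbxt delE6/+ and 21.3% in Tbxt Insert ASAY cells. Without the threshold on size, 11 of the 23 passed the edgeR adjusted p in Tbxt delE6/delE6, 7 in Tbxt delE6/+ and 15 in Tbxt Insert ASAY cells. Of all genes, 35.4%, 31.6% and 47.3% passed, a smaller share than of the 23 in Tbxt delE6/delE6 and Tbxt Insert ASAY cells. At an unadjusted edgeR p under 0.05 there were 13, 11 and 16, beside 45.4%, 41.6% and 53.7% of all genes, and the medians were 0.05, -0.01 and 0.12. Between Tbxt Insert ASAY and Tbxt delE6/+ cells 4 of the 23 were called, where 27.5% of all genes were called. All 4 were higher in Tbxt Insert ASAY cells: Pcna (0.51), Tyms (0.73), Tk1 (0.56) and Slbp (0.52). They are named because they were the only calls in this list, after their values were seen. Of 16 G2/M genes, 2 were higher in Tbxt delE6/delE6 cells, Plk1 (0.51) and Kif11 (0.63). In Tbxt delE6/+ cells 1 was higher, Cenpe (0.78), and in Tbxt Insert ASAY cells 1, Kif11 (0.74). Plk1 had 153 and 162 CPM in the Tbxt delE6/delE6 clones, beside 107 and 115 CPM in WT. For Kif11 the clones had 140 and 175 CPM, beside 101 and 103 CPM in WT. The shares of the 16 called were 12.5%, 6.25% and 6.25%, beside 12.7%, 13.5% and 21.3% of all genes. The medians of the 16 were 0.24, 0.15 and 0.26.

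A further list held 32 genes chosen as possible regulators of the 10, direct or indirect. It had 2 genes higher and 1 lower in Tbxt delE6/delE6 cells. In Tbxt delE6/+ cells 4 were higher and 2 lower, and in Tbxt Insert ASAY cells 6 were higher and 1 lower. The shares called were 9.38%, 18.8% and 21.9%, beside 12.7%, 13.5% and 21.3% of all genes, and the medians 0.15, 0.18 and 0.02. Myc, which is known to raise Ccnd2 and E-type cyclins and to hold down Cdkn1b, had 7.40 and 8.82 CPM in WT, 13.5 and 16.3 CPM in Tbxt delE6/delE6, 7.51 and 6.51 CPM in Tbxt Insert ASAY, and 3.41 and 3.07 CPM in Tbxt delE6/+ libraries. Its log2 fold change against WT was 0.88 ± 0.13 in Tbxt delE6/delE6 cells (edgeR adjusted p = 0.000426) and -1.32 ± 0.16 in Tbxt delE6/+ cells (edgeR adjusted p = 4.87e-05). Mycn, a relative of Myc given beside it after its values were seen, was at 0.74 ± 0.12 in Tbxt delE6/+ cells (edgeR adjusted p = 0.000379) and 0.71 ± 0.12 in Tbxt Insert ASAY cells (edgeR adjusted p = 0.000316), called in both. Lef1, a nuclear partner of beta-catenin, was at 1.23 ± 0.11 in Tbxt delE6/+ cells (edgeR adjusted p = 2.57e-06), and Mdm2, the ligase of p53, at -0.67 ± 0.05 (edgeR adjusted p = 1.09e-06). Tbx3, a T-box repressor of the Cdkn2a locus, was at -1.60 ± 0.25 in Tbxt delE6/delE6 cells (edgeR adjusted p = 0.00049) and -1.96 ± 0.25 in Tbxt Insert ASAY cells (edgeR adjusted p = 5.8e-05), while Cdkn2a itself was at 0.04 and 0.16. Id3 was at 1.66 ± 0.29 in Tbxt delE6/delE6 cells (edgeR adjusted p = 0.00112) and 2.60 ± 0.27 in Tbxt Insert ASAY cells (edgeR adjusted p = 1.14e-05). Its level was low, at 0.65 and 1.00 CPM in WT, 2.02 and 3.19 CPM in Tbxt delE6/delE6 and 5.10 and 4.94 CPM in Tbxt Insert ASAY libraries. Trp53 was at 0.53 in Tbxt Insert ASAY cells. No link between a regulator and a member was tested.

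**Figure D5:**
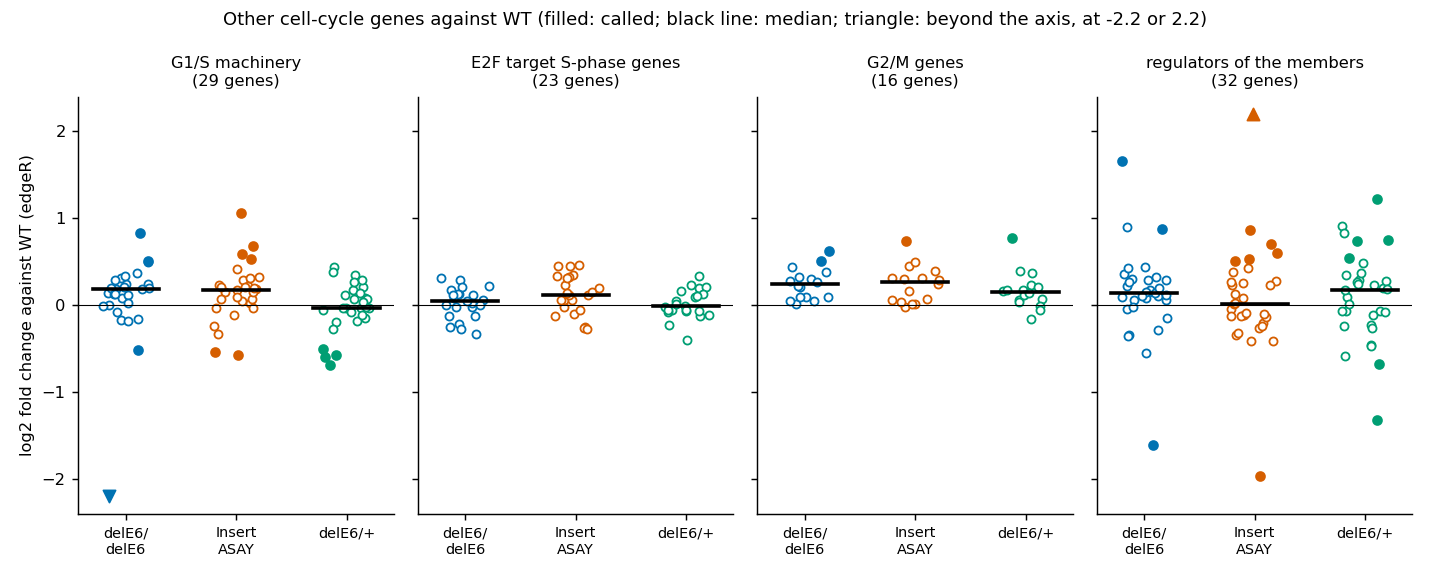
Log2 fold change against WT (edgeR) of the genes in 4 lists around the cyclins and inhibitors, in the 3 mutant lines. Filled points are called genes, black lines the medians, and triangles mark Cdkn1c at -4.10 in the first panel and Id3 at 2.60 in the last, drawn at the edge of the axis. No E2F target gene is filled, and the G2/M medians of 0.24, 0.26 and 0.15 all lie above 0.

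Markers of the cells themselves also differed between the genotypes. All 10 ES cell markers tested were detected, and their summed level was 1263 to 1310 CPM in WT, 641 to 825 CPM in Tbxt delE6/delE6, 841 to 878 CPM in Tbxt Insert ASAY and 756 to 760 CPM in Tbxt delE6/+ libraries. Of that sum Dppa5a alone gave 561 and 528 CPM in WT and 231 and 170 CPM in Tbxt delE6/delE6 libraries. It gave 288 and 252 CPM in Tbxt Insert ASAY and 183 and 180 CPM in Tbxt delE6/+ libraries. The numbers of markers called lower were 5, 4 and 6 in the same order of mutant lines, with 1 higher in Tbxt delE6/+ cells, Sox2. Of all tested genes 12.7%, 21.3% and 13.5% were called in either direction. Called or not, 2, 2 and 1 of the 10 markers had a log2 fold change above 0. Of 12 fibroblast markers, which feeder cells would express, S100a4 was at 0 in every library, Lum and Postn had too few reads for a test, and the other 9 were detected. Their summed level was 75.6 to 81.4 CPM in WT, 56.7 to 62.6 CPM in Tbxt delE6/delE6, 46.0 to 46.5 CPM in Tbxt Insert ASAY and 80.6 to 83.9 CPM in Tbxt delE6/+ libraries. Of the 9, edgeR called 3 lower in Tbxt delE6/delE6 cells and 6 in Tbxt Insert ASAY cells, and 2 higher and 1 lower in Tbxt delE6/+ cells. DESeq2 called 2, 4 and 1 of the 9 in the same order of lines. Neural progenitor markers, 7 of 9 tested, had 3 called higher in Tbxt delE6/+ cells: Sox1 (2.04), Zic1 (1.70) and Pax6 (1.31). In Tbxt delE6/delE6 cells 1 was higher, Nes. Primitive streak markers, 5 of 10 tested, summed to 18.2 to 19.98 CPM in WT and 12.8 to 24.7 CPM in the mutant libraries. Against WT, 1 of the 5 was called higher and 1 lower in Tbxt delE6/delE6 cells, where 12.7% of all genes were called. In Tbxt delE6/+ cells 1 was called higher and 1 lower, beside 13.5%. In Tbxt Insert ASAY cells 1 was called higher, beside 21.3%. Eomes was higher in Tbxt delE6/delE6 (0.54) and lower in Tbxt delE6/+ cells (-0.95). Fgf8 was higher in Tbxt delE6/+ cells (0.90) and Mixl1 higher in Tbxt Insert ASAY cells (1.88). Mixl1 was near the floor, at 0.186 to 1.06 CPM over the 8 libraries. Tbxt was lower in Tbxt delE6/delE6 cells (-0.81), on 26 and 22 reads beside 47 and 42 in WT. These cells have no exon 6 to give reads, and its part in that value was not tested. DESeq2 called 1, 1 and 0 of the 5 in Tbxt delE6/delE6, Tbxt delE6/+ and Tbxt Insert ASAY cells. The part of such differences in cell makeup in the values of the cyclins and inhibitors was not tested.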

How the data were processed

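Poly(A) RNA of 8 samples, 2 for each of 4 genotypes, was sequenced as stranded paired-end libraries. The authors mapped the reads to mm10 with STAR 2.7.2a and used DESeq2 1.40.2, per the labels' processing notes. They deposited the raw counts that STAR gives per gene, whole numbers neither normalized nor filtered, in 3 columns for the choice of strand. The column for the strand that this kit reads was used. The 4 summary lines of STAR, which 7 of the 8 files hold, entered neither library sizes nor tests, and they took 26.2% to 29.0% of the counted fragments there. Of 48440 identifiers, 48058 were paired with a GENCODE M21 symbol.

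The tests used edgeR 4.0.16 in R 4.3.3. Genes were kept by filterByExpr (minimum count 10, minimum total 15), scaled by TMM and fitted by quasi-likelihood over the 8 libraries together, each genotype having its own coefficient. Two-sided p-values were adjusted by Benjamini-Hochberg over 17049 genes. The thresholds for a call were 0.05 on the adjusted p and 0.5 on the size of the log2 fold change. With 2 libraries per group, p-values weigh a difference against the spread between replicates, estimated over the 4 genotypes together. The number of clones is known only for Tbxt delE6/delE6 cells. In the other genotypes, genotype and clone cannot be told apart. CPM per kb divide by the union of exons of a gene. The calls were checked on simulated data. Alternatives were DESeq2 1.42.0, its size factors in edgeR, no filter, unstranded counts, fits without the groups not compared, a replicate block, the length of the longest transcript, and leaving out each library.

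All 10 genes are named whatever their values. Of each list of other genes, up to 3 called genes with the smallest adjusted p per comparison with WT are named, and the 2 members with the widest range were matched to 3 genes each. Some results under these rules are not reported here. The members and the lists were chosen with earlier results of these data known. Python 3.11.15 with pandas 2.3.3 and matplotlib 3.10.9 made tables and plots. Isoforms were not analysed here.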

Additional observations from a re-analysis of the deposited data

Results flagged for a closer look

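The 2 results below stood out because 2 mutant lines passed the adjusted p against WT in opposite directions and the direct difference between the lines was called by edgeR. Ccne1 was 0.70 ± 0.06 (SE) higher on the log2 scale in Tbxt Insert ASAY than in Tbxt delE6/+ cells (edgeR adjusted p = 9.57e-07), with both Tbxt Insert ASAY libraries above and both Tbxt delE6/+ libraries below the WT libraries. Cdkn1b was 0.69 ± 0.06 higher in Tbxt delE6/+ than in Tbxt delE6/delE6 cells (edgeR adjusted p = 1.54e-06), with both Tbxt delE6/+ libraries above and both Tbxt delE6/delE6 libraries below the WT libraries. The lower Cdkn1b of Tbxt delE6/delE6 cells against WT (-0.20, edgeR adjusted p = 0.0217) did not pass with DESeq2 (adjusted p = 0.0799), without the low-count filter (edgeR adjusted p = 0.0561), in a fit of the 2 groups (edgeR adjusted p = 0.0826), without WT replicate 1 (edgeR adjusted p = 0.0944) or without WT replicate 2 (edgeR adjusted p = 0.103). Groups of 2 libraries are too small for a check of single outlying libraries.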

How the results depend on the processing

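Of the 15 calls among the 10 genes over the 6 comparisons, DESeq2 kept 14 and lost Cdkn2c in Tbxt Insert ASAY cells. DESeq2's size factors in edgeR, no low-count filter, unstranded counts, a fit of the 2 groups compared and the replicate block kept all 15. With the size factors, and likewise without the filter, Cdkn2c was gained in Tbxt delE6/delE6 cells, which made 2 genes called there against WT. Replicate numbers are not said to mark a shared day or batch. The deviations from the group means of samples with the same number correlated at -0.100 to 0.067 over 12837 genes. Such correlations cannot show whether these samples shared a batch. With the replicate block, 2135 genes were called in Tbxt delE6/delE6 cells against WT, beside 2167 without it, and the block changed no call of the 10 genes.

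Leaving out each library in turn gave 1 to 3 called members in Tbxt delE6/delE6 and 1 to 3 in Tbxt delE6/+ cells against WT, 3 to 6 between these lines, and 0 to 1 between Tbxt Insert ASAY and Tbxt delE6/delE6 cells. In Tbxt Insert ASAY cells against WT 2 were called in each case. Over all genes, 3388 were called in Tbxt delE6/delE6 cells against WT without replicate 1 of that line and 1149 without replicate 2. Between Tbxt Insert ASAY and Tbxt delE6/delE6 cells 358 were called without Tbxt Insert ASAY replicate 1 and 1529 without Tbxt delE6/delE6 replicate 2. That comparison had 880 calls (475 higher, 405 lower), 581 with DESeq2 (216 higher, 365 lower) and 572 in a fit of the 2 groups (252 higher, 320 lower). The cause was not tested.

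Values near 0 changed sign in places. Between Tbxt Insert ASAY and Tbxt delE6/delE6 cells Cdkn2d, at -0.000219, was 0.00234 with the replicate block, 0.00166 unstranded and 0.00336 in a fit of the 2 groups. Leaving out each library gave -0.091 to 0.081 for it, -0.032 to 0.34 for Ccne2 and -0.28 to 0.40 for Cdkn2c. In the same way Cdkn2d ran from -0.021 to 0.13 between Tbxt Insert ASAY and Tbxt delE6/+ cells. In Tbxt delE6/delE6 cells against WT, Ccnd2 ran from -0.067 to 0.24, Cdkn2a from -0.061 to 0.14 and Cdkn2b from -0.070 to 0.15. Between Tbxt delE6/+ and Tbxt delE6/delE6 cells, Ccnd1 ran from -0.24 to 0.15 and Cdkn2d from -0.13 to 0.028.

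Cyclin shares depended on the length and strand used. With the longest transcript, in the order WT, Tbxt delE6/delE6, Tbxt Insert ASAY and Tbxt delE6/+, Ccnd1 made up 14.2%, 17.4%, 24.4% and 16.9% of the D-type cyclins, Ccnd2 12.4%, 12.1%, 11.5% and 17.6%, and Ccnd3 73.3%, 70.5%, 64.1% and 65.5%. Ccne1 then made up 89.0% of the E-type cyclins in Tbxt delE6/delE6 and 91.9% in Tbxt delE6/+ cells. With unstranded counts, Ccnd1 was 18.9% in WT, 30.6% in Tbxt Insert ASAY and 20.99% in Tbxt delE6/+ cells, Ccnd3 was 52.0% in Tbxt Insert ASAY cells, and Ccnd2 was 19.3%, 18.7%, 17.3% and 26.1% in the 4 genotypes. Ccne1 was 93.0%, 90.1%, 90.1% and 92.4%. Ccnd3 kept the largest and Tbxt Insert ASAY the highest Ccnd1 share in both. Depth limits Cdkn2b and Cdkn2c most, with 56 to 169 reads per library.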
